A study of Mus musculus with 12 samples.

Results

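Arhgef28, C1qtnf1, Acpp and Rftn2 are 4 mouse genes that were chosen by their level in the tumors of a drug combination: they stood among the most clearly lowered genes of PB-020/anti-PD-1 against the vehicle group, CK. They are 4 of the 18211 genes quantified in 12 MC38 tumors, and all 4 were among the 13563 genes with enough counts to be tested. Because the 3 PB-020/anti-PD-1 tumors and the 3 CK tumors made the choice, every comparison of the 4 genes that sets one of those groups against another is given as a description with no p. In the comparison of anti-PD-1 with PB-020 neither mean comes from tumors that the choice used, but the fit takes its spread from all 12 tumors, so a fit of these 6 tumors alone is given beside it. Other genes were tested against CK, and relations within groups use all 12 tumors after removal of the group means.

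MC38 is a colorectal carcinoma line derived from C57BL/6 mice and was injected subcutaneously into that strain, so RNA of cancer cells and of host stroma is read on one genome. All mice were 5-week-old C57BL/6 females with an intact immune system, divided into 4 groups on day 7 after the cells were injected. CK mice received the vehicle, and the PB-020 group received PB-020, an inhibitor of the IGF-1 receptor, by daily oral gavage of 50 mg/kg. The anti-PD-1 group received the antibody RMP1-14 at 200 μg per mouse on days 9, 12, 15 and 18, and the PB-020/anti-PD-1 group received both treatments. From each group 3 tumors were sequenced, each as 1 library with between 16545394 and 17217035 expected counts. The paper lists tumor volumes for more mice per group, and how the 3 were picked is not stated. The tissue label was checked against markers: the epithelial keratin genes Krt8 and Krt18 did not exceed 0.14 FPKM in any tumor. Epcam did not exceed 0.54 and the intestinal factor Cdx2 did not exceed 0.06, so these markers were near 0. Other epithelial genes were higher, with CK means of 7.18 FPKM for Lgals4, 2.11 for Cdh1 and 92.9 for the keratin gene Krt14. The endothelial gene Pecam1 lay between 13.3 and 22.9 FPKM. FPKM, the deposited level per gene length and library total, is used for levels, and log2 differences come from expected counts.

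The 4 genes encode unrelated proteins. Arhgef28 is a guanine nucleotide exchange factor that switches on the small GTPase RhoA and binds focal adhesion kinase, which links the cytoskeleton to the matrix. C1qtnf1 is a secreted protein of the C1q and tumor necrosis factor related family, relatives of adiponectin. Acpp, prostatic acid phosphatase, has a membrane form that removes the phosphate of extracellular AMP and so yields adenosine. Rftn2 belongs to the raftlins, proteins of lipid rafts, the cholesterol-rich patches of the plasma membrane.

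The genes lie on different chromosomes of GRCm38.p6. Arhgef28 (NCBI gene 110596) spans chr13:97898594-98206675, C1qtnf1 (56745) chr11:118428457-118451782, Acpp (56318) chr9:104288240-104337722 and Rftn2 (74013) chr1:55170159-55227063. RefSeq windows of the 250 bases before an annotated start were at hand for Arhgef28 and Acpp. Only these are shown, because no window was at hand for C1qtnf1 and Rftn2. The Arhgef28 window, chr13:98206166-98206415 on the minus strand, lies inside the gene span given above. It therefore precedes a start within that span and not its outer end. The Arhgef28 window was 79.2% G and C with 26 CpG sites, a higher share than in 97.4% of 10732 windows, whose median was 59.6%, and 94 of its 250 bases lie in annotated exons. The Acpp window was 50.4% G and C with 5 CpG sites, and only 17.8% of windows were lower. The motif GGGCGG (Sp1, either strand) occurred at 2 places in the Arhgef28 window and in 57.7% of all windows. Neither window held TATAAA (6.87% of windows), CATTCC (TEAD, 10.4%), TGANTCA (AP-1, 4.47%), TGTTTAC (FOXO, 2.07%) or CACGTG (E-box, 8.08%) on either strand, and the Acpp window held no GGGCGG. The stretches below are on the minus strand, 5′ to 3′, with the GGGCGG match or its reverse complement in capitals. The Acpp stretch stops where an annotated exon begins. The 26 exonic bases left out lie outside the Acpp span given above, and their transcript is not given.
Arhgef28, chr13:98206252-98206281: tgtgggcgcggcGGGCGGgcgagcgggggt
Arhgef28, chr13:98206208-98206237: ggagctgcggctCCGCCCctcggtgcggcc
Acpp, chr9:104337749-104337972: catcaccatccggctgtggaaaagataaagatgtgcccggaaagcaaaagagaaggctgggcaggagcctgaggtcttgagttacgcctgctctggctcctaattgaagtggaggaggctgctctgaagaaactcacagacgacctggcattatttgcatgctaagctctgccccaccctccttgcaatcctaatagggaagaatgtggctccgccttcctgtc

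Arhgef28 was lower in every treated group than in CK. Its levels were 3.55, 4.03 and 3.48 FPKM in CK and 3.28, 2.48 and 2.69 in PB-020. They were 1.57, 2.01 and 1.66 in anti-PD-1 and 1.57, 1.38 and 1.61 in PB-020/anti-PD-1. All PB-020 tumors lay below all CK tumors, all anti-PD-1 tumors lay below all PB-020 tumors, and the anti-PD-1 and combination tumors overlapped. Group means were 3.69 ± 0.30, 2.82 ± 0.41, 1.75 ± 0.23 and 1.52 ± 0.12 FPKM (SD, n = 3 each) in that order, so the anti-PD-1 mean was 47.4% and the combination mean 41.2% of CK. These levels rest on 120 to 342 expected counts per tumor.

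C1qtnf1 was the most abundant of the 4. It stood at 21.32, 20.54 and 20.01 FPKM in CK and at 14.58, 15.59 and 17.44 in PB-020. It stood at 9.21, 13.36 and 8.83 in anti-PD-1 and at 7.64, 8.27 and 8.76 in PB-020/anti-PD-1. No 2 groups overlapped, although the gap between the combination and anti-PD-1 was only 0.07 FPKM, and anti-PD-1 tumor 2 stood above the other two of its group. Means were 20.6 ± 0.66, 15.9 ± 1.45, 10.5 ± 2.51 and 8.22 ± 0.56 FPKM (SD, n = 3 each).

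Acpp had the lowest levels and the largest difference. It was read at 2.53, 2.79 and 3.63 FPKM in CK and at 2.54, 2.36 and 1.80 in PB-020. In anti-PD-1 it was read at 0.60, 0.79 and 0.50, and in PB-020/anti-PD-1 at 0.58, 1.04 and 0.54. The tumors fell into a higher pair of groups, CK and PB-020, which overlapped by 0.01 FPKM, and a lower pair, anti-PD-1 and the combination, which overlapped as well. Means were 2.98 ± 0.57, 2.23 ± 0.39, 0.63 ± 0.15 and 0.72 ± 0.28 FPKM (SD, n = 3 each), and the lowest library held 32 expected counts of Acpp.

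Rftn2 was lower with each step from CK to PB-020, anti-PD-1 and the combination. CK tumors read 4.16, 4.28 and 4.19 FPKM, and PB-020 tumors 3.13, 3.64 and 2.72. Anti-PD-1 tumors read 2.52, 2.30 and 2.0, and combination tumors 1.57, 1.98 and 1.83. No 2 groups overlapped, with gaps of 0.2 FPKM between PB-020 and anti-PD-1 and 0.02 between anti-PD-1 and the combination. Means were 4.21 ± 0.06, 3.16 ± 0.46, 2.27 ± 0.26 and 1.79 ± 0.21 FPKM (SD, n = 3 each).

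**Figure D1:**
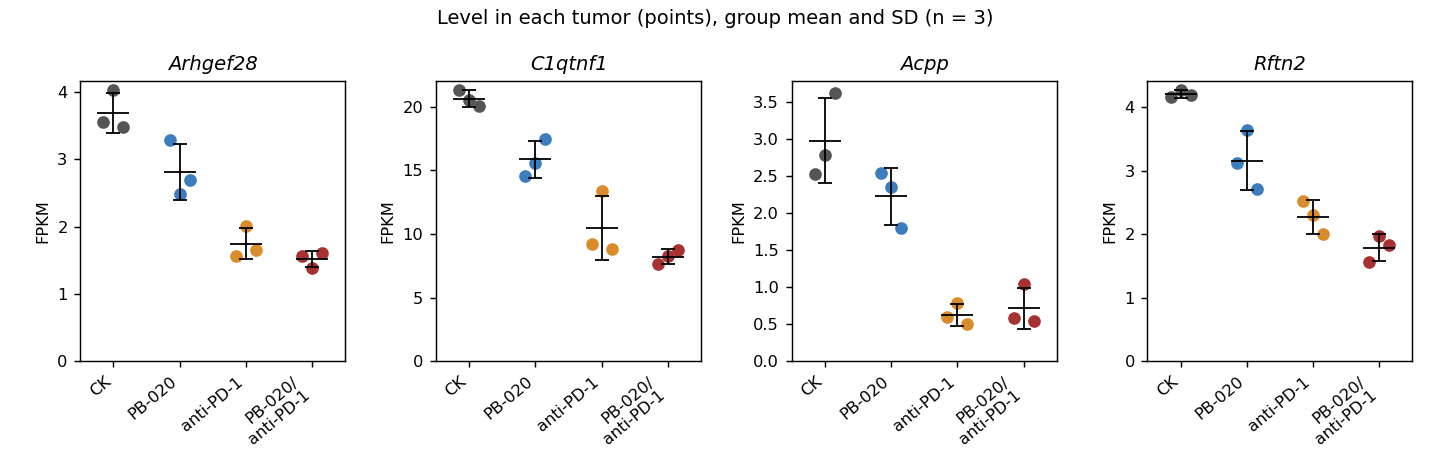
Level in FPKM (vertical axis) of Arhgef28, C1qtnf1, Acpp and Rftn2 in each of 12 tumors (points), by group (horizontal axis), with the group mean and SD of 3 tumors as bars. PB-020 means lie at 74.9% to 77.0% of CK for all 4 genes, while for Acpp the anti-PD-1 mean, 0.63 FPKM, lies beside the combination mean of 0.72.

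The choice used the combination against CK, and there the log2 differences were -1.25 (SE 0.13) for Arhgef28, -1.31 (0.13) for C1qtnf1, -2.14 (0.24) for Acpp and -1.25 (0.14) for Rftn2. The 4 genes were picked for a consistent fall, and their falls were large but not the largest. Among all 13563 genes tested, 149, 137, 46 and 150 genes, in that order, had a larger fall. Ordered by p among the 1288 genes that were called lower by edgeR (adjusted p under 0.05) and had no overlap of tumors, they held places 1, 2, 4 and 5. Cdh13, T-cadherin, a receptor of adiponectin, held place 3 with a log2 difference of -0.67 (SE 0.07) and 72.3 against 45.1 FPKM. Just outside were Rnf167, a ubiquitin ligase, at -0.68 (SE 0.08) and Jup, the junction protein plakoglobin, at -1.32 (SE 0.14). In this comparison 9.6% of all genes tested were called lower and 8.35% higher, and 22.4% had all 3 combination tumors below all 3 CK tumors, as all 4 members did.

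The other comparisons with the choosing tumors are set out as values. The choice fixed in part how the 4 genes stand beside all genes in them. PB-020 minus CK gave log2 differences of -0.36 (SE 0.12), -0.35 (0.13), -0.39 (0.22) and -0.35 (0.13) for Arhgef28, C1qtnf1, Acpp and Rftn2, and the PB-020 tumors lay below CK for 3 of 4 genes, against 8.74% of all genes. With edgeR, 0 of 13563 genes (0% higher and 0% lower) passed an adjusted p of 0.05 between PB-020 and CK, with 741 at an unadjusted p under 0.05 and 0 list genes under any alternative. Anti-PD-1 minus CK gave -1.10 (0.13), -0.96 (0.13), -2.26 (0.24) and -0.87 (0.14), where 4.08% of genes were called lower and 4.18% higher, and all 4 lay below CK against 17.2% of genes. The 3 comparisons with CK share the CK tumors.

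In Arhgef28 and Acpp the combination tumors overlapped those of anti-PD-1 alone. Combination minus anti-PD-1 gave log2 differences of -0.15 (SE 0.13) for Arhgef28, -0.35 (0.14) for C1qtnf1, 0.12 (0.25) for Acpp and -0.37 (0.14) for Rftn2. The combination tumors lay below the anti-PD-1 tumors for C1qtnf1 and Rftn2, 2 of 4 genes against 4.9% of all genes. Against PB-020 alone the combination was lower in all 4, by -0.89 (SE 0.13), -0.95 (0.13), -1.75 (0.24) and -0.90 (0.14) on the log2 scale, with no overlap against 15.7% of genes. The order of means CK, PB-020, anti-PD-1, combination held for 3 of 4, Acpp excepted, and for 16.3% of all genes. The genes were chosen as low in these combination tumors against CK, so the choice fixed these counts in part.

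**Figure D2:**
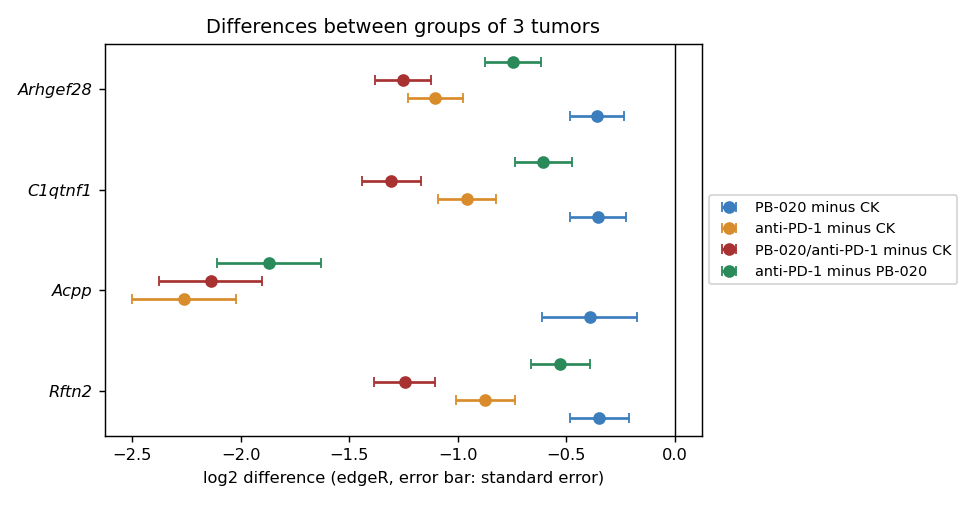
The log2 difference (horizontal axis) between groups of 3 tumors for Arhgef28, C1qtnf1, Acpp and Rftn2, with the edgeR standard error as bars and 1 colour per comparison. PB-020 minus CK lies between -0.39 and -0.35 for all 4 genes, while anti-PD-1 minus PB-020 reaches -1.87 for Acpp.

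Between anti-PD-1 and PB-020, Acpp and Arhgef28 passed the test in the fit of all 12 tumors and did not pass in a fit of these 6 tumors alone. Acpp fell by 1.87 on the log2 scale (SE 0.24), 3.65-fold lower in anti-PD-1, with an edgeR quasi-likelihood adjusted p of 0.0143 and the second smallest p of all genes tested. Arhgef28 fell by 0.74 (SE 0.13), 1.68-fold lower, with an edgeR adjusted p of 0.0487. In the fit of the 6 tumors alone, whose spread owes nothing to the choosing tumors, the log2 differences were -1.86 and -0.74 and the edgeR adjusted p 0.0812 and 0.158. C1qtnf1 had a difference of -0.61 (SE 0.13) and an edgeR adjusted p of 0.0706, and Rftn2 one of -0.53 (SE 0.14) and 0.0858, so neither passed. All 3 anti-PD-1 tumors lay below all 3 PB-020 tumors for each of the 4 genes, as for 11.9% of all genes. In all, 12 genes (0.0885%) were called lower and 14 (0.103%) higher, while 2783 genes had an unadjusted p under 0.05. An exact permutation test of 3 tumors against 3 cannot go below 0.1, so these calls rest on the spread that edgeR shares across genes and groups, the choosing tumors included.

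The calls depended on single libraries and on the method. Acpp was past the threshold in 15 of 19 alternatives and Arhgef28 in 7, with the same sign for all 4 genes in all 19. Acpp lost its call without PB-020 tumor 1 (edgeR adjusted p 0.0707) or anti-PD-1 tumor 3 (0.0957), and with limma on log2(FPKM + 1) (0.0563). Arhgef28 kept its call on leaving out a tumor only for CK tumor 2 (edgeR adjusted p 0.042), PB-020 tumor 2 (0.0373) and anti-PD-1 tumor 2 (0.00494), and in the other leave-one-out fits it lay between 0.0556 and 0.224. C1qtnf1 was called without anti-PD-1 tumor 2 (edgeR adjusted p 0.000955).

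**Figure D3:**
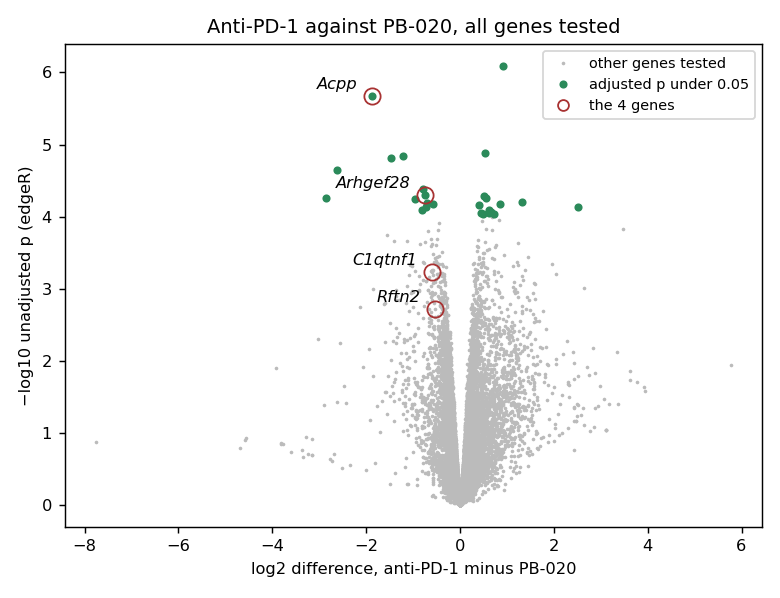
All 13563 genes tested in anti-PD-1 against PB-020: log2 difference (horizontal axis) and -log10 of the unadjusted edgeR p (vertical axis), with the genes past an adjusted p of 0.05 filled and Arhgef28, C1qtnf1, Acpp and Rftn2 ringed. Acpp at -1.87 and Arhgef28 at -0.74 are filled, while C1qtnf1 and Rftn2 lie below the called genes.

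None of the genes of the 16 lists passed in this comparison, but some summed marker levels did not overlap. The summed FPKM of the T cell list lay between 52.0 and 60.6 in PB-020 and between 68.8 and 136.5 in anti-PD-1, where tumor 1 gave the upper end and the other two lay at 68.8 and 72.6. The sum of the erythroid list lay between 449 and 1046 in PB-020 and between 101 and 380 in anti-PD-1. The fibroblast sum lay between 2268 and 2374 in PB-020 and between 1248 and 2200 in anti-PD-1. Col3a1 alone had means of 1070 FPKM in PB-020 and 529 in anti-PD-1. Of the 15 fibroblast genes only 6 had a negative log2 difference in anti-PD-1 minus PB-020, and the median was 0.43. The endothelial sums overlapped, with 98.3 to 113 in PB-020 and 87.1, 95.3 and 150 in anti-PD-1, again highest in tumor 1, which also had the highest macrophage sum, 1444 against 804 and 832. Skeletal muscle genes summed to 786 in the same tumor against 16.2 to 91.9 in the other 11 tumors, and without that tumor the differences were -1.85 for Acpp (edgeR adjusted p 0.0183) and -0.67 for Arhgef28 (0.0785). Adipocyte genes summed to 295 in CK tumor 3 against 32.8 to 68.7 in the others. Lower RNA per cell and fewer cells of a type cannot be told apart in bulk tumors, and the part of these cell types in the results was not tested.

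The lists built around the 4 genes hold relatives and also receptors and partners. Most of their tested genes did not pass the test in the combination against CK, where 9.6% of all genes were called lower and 8.35% higher. Of 21 other RhoA exchange factors, 7 fell and 2 rose in the combination against CK (edgeR adjusted p under 0.05), with a median log2 difference of -0.08 against -0.00 for all genes. Arhgef3 rose by 0.67 (SE 0.13) and Arhgef40, a factor of the same class, fell by 0.36 (SE 0.08). In the Lbc group to which Arhgef28 belongs, Akap13 fell by 0.42 (SE 0.12), Arhgef18 by 0.32 (SE 0.08) and Arhgef12 by 0.25 (SE 0.06), while Arhgef1, Arhgef2 and Arhgef11 differed by -0.08, -0.15 and -0.10 and did not pass. Of 20 genes of the RhoA and focal adhesion kinase axis, Ptk2b and Srf rose and Vcl, the adhesion protein vinculin, fell by 0.32 (SE 0.08).

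Of 16 tested genes of the C1q and tumor necrosis factor related list, 3 fell and none rose in the combination. They were C1qtnf6 (-0.37, SE 0.09), C1qtnf9 (-0.91, SE 0.30) and Cdh13, a receptor and not a member of the family. Cdh13 held place 3 in the ranking of this same comparison. The lists were chosen with earlier results known, so their counts are a description. C1qtnf12, at 23.8 FPKM in CK and 25.0 in the combination, did not pass. The list of acid phosphatases and extracellular nucleotide enzymes also holds the adenosine receptor genes Adora2a, Adora2b and Adora3 and the transporter gene Slc29a1. Of its 16 tested genes Acp1 rose and 2 fell. Enpp3, which cleaves extracellular nucleotides, went from 6.04 to 0.73 FPKM and fell by 3.02 (SE 0.43), and Entpd2, which removes phosphates from ATP, fell by 0.79 (SE 0.12). Nt5e, the main ectonucleotidase that makes adenosine from AMP, stood at 5.89 in CK and 8.63 FPKM in the combination, a log2 difference of 0.57 (SE 0.22) with an edgeR adjusted p of 0.093. Of 14 raft and caveola genes, Lat, a T cell adaptor, rose, and the caveola proteins Ehd2 (-0.49, SE 0.08) and Cavin3 (-0.42, SE 0.12) fell. Rftn1, the paralog of Rftn2, had a log2 difference of 0.35 (SE 0.14) and an edgeR adjusted p of 0.10.

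Among cell type lists, the vascular and stromal genes were split. Of 20 endothelial genes only Cldn5, of tight junctions, passed in the combination, where it fell by 0.98 (SE 0.25), and 17 of 20 had a negative difference (median -0.33). In PB-020 against CK all 20 endothelial genes had a negative difference (median -0.35) and none passed. Their summed FPKM overlapped, with 109 to 160 in CK, highest in tumor 3, and 98.3 to 113 in PB-020. Of 12 pericyte and smooth muscle genes, Pdgfrb (-0.57, SE 0.08), Abcc9, Kcnj8 and Mcam fell and Tagln rose. Of 15 fibroblast genes, Col3a1 (-1.56, SE 0.22), Col6a1, Col5a1, Pdgfra and Dcn fell and Postn rose. Of 14 T cell genes 12 rose, among them the receptor chain gene Cd3d by 2.25 (SE 0.44). Of 12 proliferation genes 7 rose, among them Top2a by 0.65 (SE 0.12), and all 5 erythroid genes tested fell. Among them Hbb-bs, a beta globin gene, fell by 2.86 (SE 0.54). Of 12 genes of the macrophage list Msr1 alone passed and rose by 0.65 (SE 0.15). Of 4 genes of the keratinocyte list Krt14 alone passed and rose by 1.04 (SE 0.17). Krt14 stood at 92.9 FPKM in CK, against 0.78 for Krt5, 0.26 for Krt1 and 1.21 for Krt10. In the muscle and fat lists none passed. Of 17 epithelial genes only 3 were tested, and Lgals4 fell by 0.56 (SE 0.18). Against CK the lists held 44 called genes for anti-PD-1 and 60 for the combination. Among all 13563 genes tested, 1120 and 2434 were called. Without CK tumor 2 these counts were 6 and 28. Without CK tumor 1, CK tumor 3 or anti-PD-1 tumor 3 the count for anti-PD-1 was 26, 25 or 19, and without combination tumor 1 or 2 the count for the combination was 33. With only the groups compared in the fit, anti-PD-1 had 0.

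**Figure D4:**
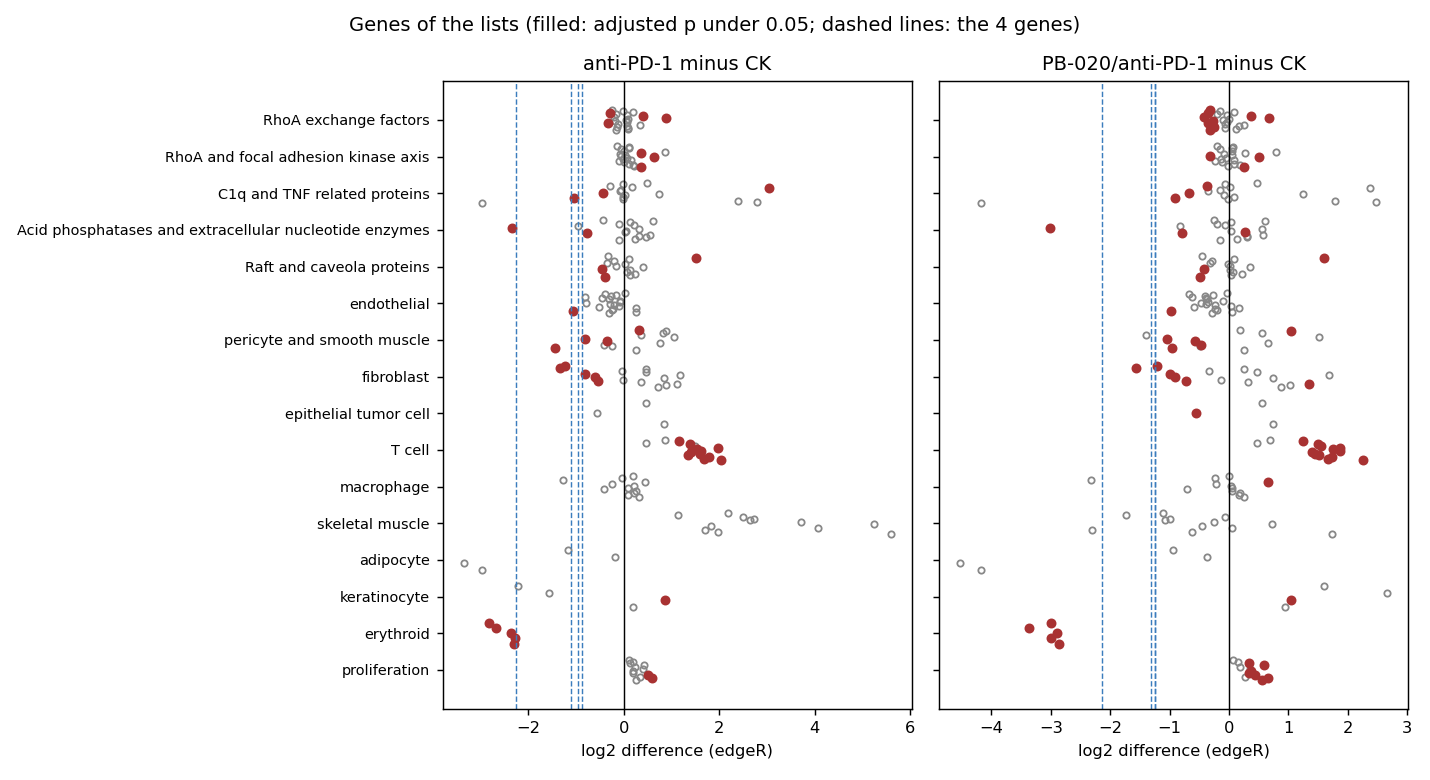
Log2 difference against CK (horizontal axes) of each tested gene of 16 lists (rows) in anti-PD-1 (left) and PB-020/anti-PD-1 (right), filled where the edgeR adjusted p was under 0.05, with dashed lines for Arhgef28, C1qtnf1, Acpp and Rftn2. T cell genes lie to the right and erythroid genes to the left in both, and most genes of the RhoA lists lie nearer 0 than Arhgef28.

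The 4 genes followed each other across the 12 tumors, and no such relation was found within groups. Pearson's r between pairs lay between 0.905 and 0.958 over all tumors, which the choice of the genes fixed in part. After subtraction of the group means, r lay between -0.03 and 0.492 over 6 pairs, and the smallest p of the exact permutation test within groups was 0.291 (adjusted over the 6 pairs, 0.949).

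The same removal of group means was applied to the mean log2 CPM of the endothelial, pericyte, fibroblast and epithelial lists, 16 relations in all. None passed an adjusted p of 0.05, the smallest being 0.259 by the exact permutation test over all orders within groups. Rftn2 had the highest values, with r = 0.684 and a Spearman coefficient of 0.783 for the pericyte and smooth muscle list (exact permutation p = 0.0324 and 0.0116, adjusted 0.259 and 0.173). For the endothelial list Rftn2 had r = 0.572 and a Spearman coefficient of 0.629 (exact permutation p = 0.0285 and 0.0216, adjusted 0.259 and 0.173). Without the 2 tumors farthest from the median list level these were r = 0.908 and 0.782. For the endothelial list the adjusted p was then 0.278 (exact permutation test). For the pericyte and fibroblast lists both tumors left out were of anti-PD-1, so the tumor left in that group added nothing to r. Arhgef28 and C1qtnf1 had negative r with the 3 vascular and stromal lists, from -0.584 to -0.259, and without the 2 farthest tumors, which included anti-PD-1 tumor 1 each time, r with the endothelial list was 0.0889 and 0.039. Arhgef28 then had r = -0.204 with the pericyte list and -0.556 with the fibroblast list, and C1qtnf1 had -0.0908 and 0.316. Acpp had r between -0.03 and 0.25. The epithelial list rests on 3 genes.

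**Figure D5:**
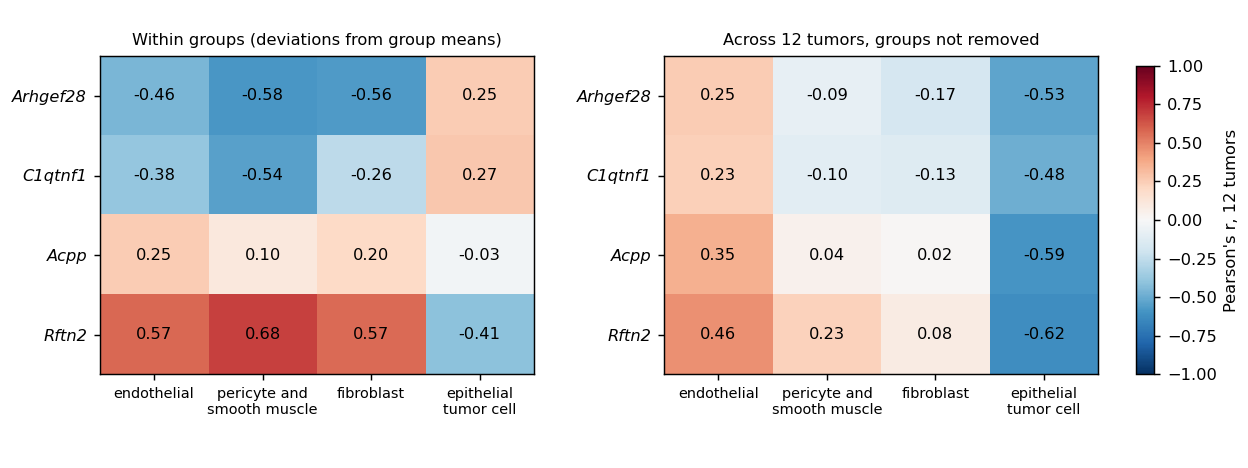
Pearson's r over 12 tumors between Arhgef28, C1qtnf1, Acpp and Rftn2 (rows) and the mean level of 4 marker lists (columns), after removal of group means (left) and without it (right). Within groups Rftn2 reaches 0.684 with the pericyte list while Arhgef28 is at -0.584, and none of the 16 passed an adjusted p of 0.05.

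The genes whose levels over the 12 tumors were most like each of the 4 are named by r of log2 CPM, as a description. Arhgef28 was most like Calcoco1 (r = 0.983), Rtkn (0.978) and Dkk2, a secreted modulator of Wnt signaling (0.977). C1qtnf1 was most like 1110051M20Rik (0.986), Paxx, of DNA end joining (0.978), and Jup (0.976). For Acpp these were Nrep (0.963), Mical1 and Pdcd4 (0.961 each), and for Rftn2 Irs1, an adaptor of the insulin and insulin-like growth factor receptors (0.969), Col5a1 (0.965) and Mical1 (0.963). Within groups their r lay between 0.59 for Irs1 and 0.932 for Calcoco1. The search for the highest r used the same tumors, so these values are raised by the choice and were not tested. In anti-PD-1 against PB-020 none of these genes passed, with edgeR adjusted p from 0.0607 for Dkk2 to 0.205 for Irs1.

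None of the 8 nearest tested genes, 1 on each side of each of the 4, passed in the combination against CK or in anti-PD-1 against PB-020. Enc1, 646 kb from Arhgef28, had a log2 difference of 0.69 (SE 0.23) in the combination, and Utp15, 40.2 kb away on the other side, one of 0.00 (SE 0.07). Cant1, 9.32 kb from C1qtnf1, had -0.13 (SE 0.07), Dnajc13, 24.6 kb from Acpp, -0.04 (SE 0.08), and Mob4, 15.3 kb from Rftn2, 0.25 (SE 0.09).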

How the data were processed

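The 12 tumors were grouped by the sample labels, and doses and days follow the study's methods. Each sample is a tumor of its own, and the authors aligned reads with Bowtie2 and quantified genes with RSEM. The processing notes also name HISAT and GRCm38.p6. The authors deposited expected counts, which are not normalized and were whole in 91% of values, and FPKM values scaled by the authors for gene length and library total. The deposited TPM values, brought by the authors to 1 common total per library, and group averages were not used.

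Expected counts were rounded and fitted in R 4.3.3 with edgeR 4.0.16 (filterByExpr minimum count 10, TMM, robust quasi-likelihood, 4 group means, all 12 libraries), two-sided, with Benjamini-Hochberg adjustment over 13563 genes. Relations used log2 CPM (prior count 2). Of the genes, 18091 (99.3%) matched RefSeq. The 4 genes and all lists were chosen with earlier results of these data known. Genes named are the 4, the lowered genes ranked by p near them, the 3 most alike, neighbours, paralogs, and the called list genes of smallest p, and further called genes are named to complete counts of 5 or fewer. DESeq2 1.42.0, limma 3.58.1 on log2(FPKM + 1), other filters and scalings, a replicate block and each library left out were alternatives for group comparisons. The computation was tested on simulated counts.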

Additional observations from a re-analysis of the deposited data

How the results depend on the processing

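In anti-PD-1 against PB-020, 2 of the 4 genes were called among 26 genes in all. DESeq2 called 4 of the 4 and 689 genes, limma on log2(FPKM + 1) 0 and 0, scaling by library size alone 1 and 2, and a fit of only the groups compared 0 and 3. No filter gave 42 genes. Leaving out 1 library gave 0 to 3 of the 4 and 0 to 993 genes, with 0 genes without anti-PD-1 tumor 3 and 993 without anti-PD-1 tumor 2. List genes called against CK numbered 6 to 62 for anti-PD-1 (44 in the full data) and 28 to 86 for the combination (60) when 1 library was left out, and 0 for anti-PD-1 with only the groups compared. The causes were not tested.

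Same-numbered tumors of different groups showed no clear joint deviation: r was over 0.1 in 2 of 18 pairs (range -0.21 to 0.289). Pairs with different numbers ranged from -0.218 to 0.355. Whether the numbers mark a shared batch was not tested. With the replicate block, 61 genes were called in anti-PD-1 against PB-020, and 2 of the 4 genes.

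None of the 16 relations with marker lists passed under the alternatives run for them, but signs changed. The alternatives were log2(FPKM + 1), the list median, a replicate block, leaving out anti-PD-1 tumor 1 and leaving out the 2 farthest tumors. With the list median, r was -0.0318 for Acpp and pericytes, -0.231 for Acpp and fibroblasts and -0.459 for Rftn2 and fibroblasts. Without anti-PD-1 tumor 1, C1qtnf1 and fibroblasts had 0.286. Without the 2 farthest tumors, Arhgef28 had 0.0889 with the endothelial and -0.23 with the epithelial list, C1qtnf1 0.039 with the endothelial and 0.316 with the fibroblast list, and Acpp 0.579 and Rftn2 0.0215 with the epithelial list.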
